A study of Homo sapiens with 18 samples.

Results

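The transcription factor SRF and 9 genes of contractile and actin-binding proteins that are textbook targets of SRF with its MRTF coactivators were followed across melanoma cells induced to overexpress PPP2R3B. The genes, ACTA2, TAGLN, MYL9, CNN1, CNN2, TPM1, TPM2, VCL, CALD1 and SRF itself, were taken by name, and all 10 have an entry among the 58051 genes counted. PPP2R3B encodes PR70, a regulatory subunit of the phosphatase PP2A. The melanoma lines SKMEL2 and SKMEL30, which both carry NRAS variants, were transduced with a lentiviral pTRIPZ vector that holds a Myc-tagged PPP2R3B reading frame under a tet-ON promoter, and were selected with puromycin. Every library, uninduced ones included, comes from cells with this vector. Each line has 3 libraries of cells without doxycycline (uninduced), 3 of cells given doxycycline for 6 h and 3 of cells given it for 18 h, 18 libraries in all. The labels give the later time as 18 h and the study's text gives an earlier hour for it; 18 h is used here. No library of cells given doxycycline without the PPP2R3B vector was analysed here, so the effects of doxycycline and of PPP2R3B cannot be told apart, and no time of harvest is given for the uninduced cells. The labels do not say whether the 3 libraries of a group come from separate cultures, so p-values measure the spread between these libraries, which may be technical.

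SRF binds a short DNA element, the CArG box. Its activity at genes of the cytoskeleton is set by the MRTF coactivators, which are held by free actin monomers and released when actin assembles into filaments, whereas the ternary complex factors of the ELK family bring SRF to growth factor responsive genes such as FOS and EGR1. Smooth muscle cells and myofibroblasts use the SRF and MRTF programme at full strength and make ACTA2, TAGLN, MYL9 and CNN1 in abundance. Other cells express mainly its widely used members, such as VCL and the non-muscle forms of caldesmon and tropomyosin.

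Total counts ranged from 13402645 to 22383470 per library. Levels are given as CPM, counts scaled to a common library total with TMM factors, and levels of different genes are compared only as CPM per kilobase of the MANE Select transcript. PPP2R3B rose in each line at each time, with log2 fold changes from 4.38 to 4.88 (edgeR's quasi-likelihood test, largest adjusted p = 9.04e-08). The melanocyte markers MITF, SOX10, MLANA, PMEL, TYR, TYRP1, DCT and S100B were all detected in every library, with a summed level of 4216 to 4925 CPM in SKMEL2 and of 8801 to 9323 CPM in SKMEL30. The sums do not stand for each marker. Between uninduced cells edgeR called 3 of the 8 higher and 4 lower in SKMEL30, where 35.8% and 40.1% of all genes tested were. Their log2 fold changes ran from -1.61 to 8.29. Fibroblast markers (9 genes) summed to between 16.4 and 21.1 CPM in SKMEL2 and to between 68.6 and 74.5 CPM in SKMEL30, and smooth muscle markers (6 genes) to between 1.44 and 5.51 CPM, with MYOCD, the coactivator that defines smooth muscle and heart, at 0 in all libraries. These are bulk libraries, in which fewer cells with a transcript and less of it per cell cannot be told apart.

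The start sites of the genes were searched for the CArG box, since it is the element by which SRF reaches its targets. In the RefSeq promoter sequences of GRCh38.p14, each covering 250 bases before to 50 after a start site, 8 of the 10 genes have an entry, with 14 windows between them. TAGLN and MYL9 have none. Only an exact match of 10 letters, CC, then A or T alone, then GG, was counted as a box. Elements with a mismatch, or outside the windows, were not searched for, so a gene without a match may still have such an element. A CArG box on either strand was found in 2 of the 14 windows (14.3%), against 454 of 35116 windows of the same length (1.29%). Counted by gene it was found in 2 of 8 genes, against 438 of 27305 (1.6%). The genes with a match were CNN2 and SRF, and only the stretch upstream of the start site around each box is shown, on the plus strand, with the boxes in capitals. The box of CNN2, at chr19:1026489-1026558, began 89 bases before the start site. In SRF, at chr6:43171209-43171268, a pair of boxes began 30 and 10 bases before it. A match describes the letters of this window and is no evidence of binding.
CNN2: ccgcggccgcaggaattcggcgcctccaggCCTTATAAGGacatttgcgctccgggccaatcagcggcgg
SRF: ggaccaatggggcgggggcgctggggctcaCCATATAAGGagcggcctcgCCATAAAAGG

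The genes divided into a detected group and a group near the limit of detection. CNN2, TPM1, TPM2, VCL, CALD1 and SRF passed the filter on low counts in both lines, with between 47 and 6058 counts in every library. TAGLN passed in SKMEL30 only, and ACTA2, MYL9 and CNN1 passed in neither. A gene with 0 counts in a library may still have a level worth 3 counts, which is 0.134 to 0.224 CPM at these depths; this limit covers counting error only.

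**Figure D1:**
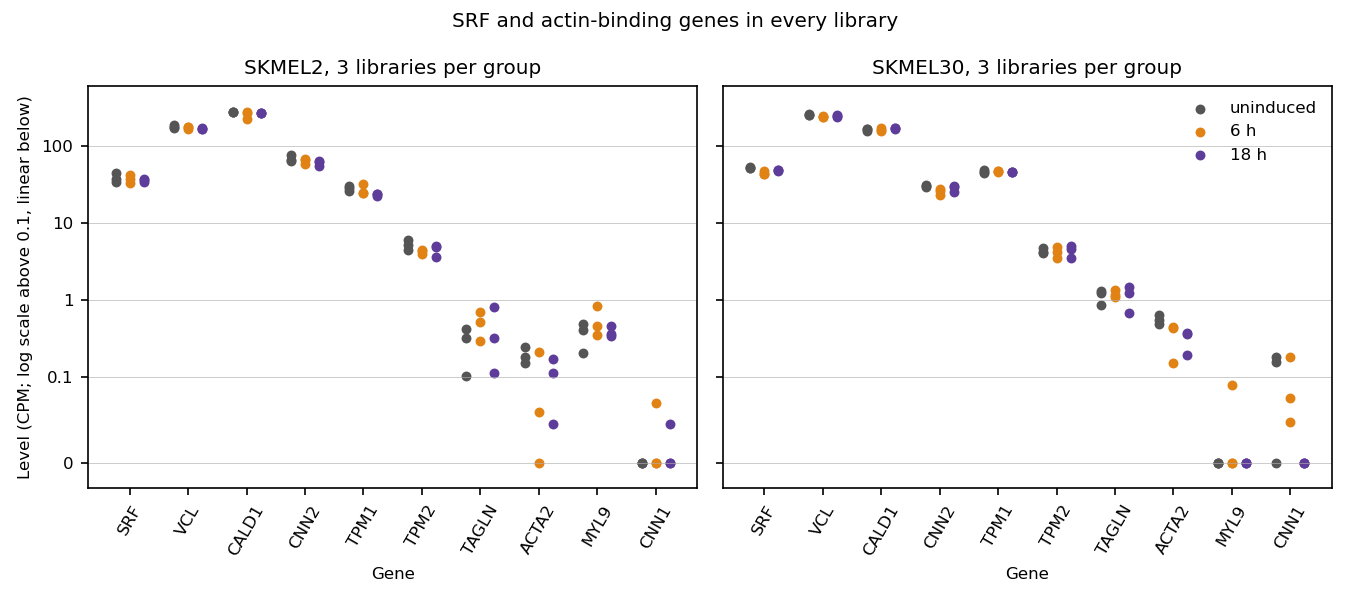
Level of SRF and the 9 actin-binding or contractile genes in each of the 18 libraries, in CPM on an axis that is logarithmic above 0.1 and linear below. Each point is a library, coloured by group; ACTA2, MYL9 and CNN1 lie under 1 CPM in both lines, whereas VCL and CALD1 lie above 150 CPM.

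ACTA2 (ENSG00000107796; chromosome 10, 88935074 to 88991337, all positions here being those of RefSeq on GRCh38.p14) encodes smooth muscle α-actin. In SKMEL2 its counts were 4, 3 and 4 in uninduced cells, 0, 1 and 3 at 6 h and 1, 3 and 2 at 18 h. In SKMEL30 they were 10, 12 and 8 in uninduced cells, 2, 9 and 10 at 6 h and 7, 3 and 7 at 18 h. Scaled to CPM, all 6 induced SKMEL30 libraries (0.151 to 0.451) lay below the 3 uninduced ones (0.488 to 0.630). Of the genes tested in this line, 5.78% lay wholly below at 6 h and 8.19% at 18 h, each time taken alone. The share that did so at both times was not counted. Under the filter ACTA2 was not tested, so it is not among the genes of these shares. Without a filter on low counts all 10 genes were tested by edgeR, and ACTA2 was not among the 2 called in SKMEL30 at 6 h (SRF and CNN2) or the 0 called at 18 h. ACTA2 shares 27288 bases with FAS and 4901 with ACTA2-AS1, and 38.9% of its deposited values were not whole numbers, that is, reads were divided between genes.
MYL9 (ENSG00000101335; chromosome 20, 36541519 to 36551447) encodes a regulatory light chain of smooth muscle and non-muscle myosin II. It had 4 to 12 counts in each SKMEL2 library, where the groups overlapped. In SKMEL30 it had 0 counts in 8 of 9 libraries and 2 in the other, a 6 h library. CNN1 (ENSG00000130176; chromosome 19, 11538851 to 11550323), the calponin of differentiated smooth muscle, had at most 1 count in any SKMEL2 library and at most 4 in any SKMEL30 library, and was at 0 in all 3 SKMEL30 libraries of 18 h. TAGLN (ENSG00000149591; chromosome 11, 117199294 to 117207465), which encodes the actin-bundling protein transgelin, had 2 to 14 counts in SKMEL2 and 13 to 25 in SKMEL30. TAGLN shares 3129 bases with PCSK7, and 77.8% of its values were not whole.

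Close relatives of these weakly detected genes were abundant in the same libraries. The relatives named here were chosen after their values were seen, from a list of 36 other genes of the actin cytoskeleton. Of the cytoplasmic actins, group means ran from 973 to 1325 CPM per kilobase for ACTB and from 919 to 2317 for ACTG1, against 0.0631 to 0.426 for ACTA2. Among calponins, CNN3 ran from 111 to 176 CPM per kilobase, CNN2 from 12.4 to 30.8 and CNN1 from 0 to 0.0786. TAGLN2 ran from 122 to 184 CPM per kilobase, against 0.0718 to 0.328 for TAGLN. The myosin light chain genes MYL12A and MYL12B, whose products are the non-muscle counterparts of MYL9, ran from 153 to 168 and from 157 to 186 CPM per kilobase, and MYL9 from 0 to 0.189. Among tropomyosins, TPM4 (113 to 126 CPM per kilobase) and TPM3 (57.9 to 98.6) lay above TPM1 (18.4 to 39.9) and TPM2 (3.43 to 4.24). The values of these relatives, other than CNN3, were fractions in all libraries, so the division of reads among near-identical copies adds an error to them that was not measured.

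In uninduced SKMEL2 cells the order of levels per kilobase was CALD1 (53.1 ± 0.28 CPM per kilobase, SD, n = 3), VCL (31.3 ± 1.48), CNN2 (30.8 ± 3.01), TPM1 (22.3 ± 2.08), SRF (8.80 ± 1.18) and TPM2 (4.24 ± 0.611). VCL and CNN2, neighbours in this order, overlapped in range, and the other neighbours among these 6 did not. In uninduced SKMEL30 cells the order was VCL (48.0 ± 0.495 CPM per kilobase, SD, n = 3), TPM1 (39.7 ± 1.55), CALD1 (33.7 ± 1.32), CNN2 (14.7 ± 0.427), SRF (12.8 ± 0.174) and TPM2 (3.76 ± 0.296), with no overlap between neighbours. The lengths used are of 1 transcript per gene, whereas CALD1 and the tropomyosin genes make several. SRF and TPM2 held the lowest places of the 6 in each line, and CALD1 and VCL exchanged the first.

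The difference between the lines before induction was tested in a fit of all 18 libraries. Of the 6 genes of the list that passed the filter in each line by itself, 5 differed between uninduced SKMEL30 and uninduced SKMEL2 cells (3 higher and 2 lower in SKMEL30), where 75.9% of the 17133 genes tested did (35.8% higher, 40.1% lower), so the share is near the background. VCL (ENSG00000035403; chromosome 10, 73998116 to 74121363), which encodes the focal adhesion protein vinculin that links integrin complexes to actin, was higher in SKMEL30 by a log2 fold change of 0.62 (SE 0.04, edgeR's quasi-likelihood test, adjusted p = 5.31e-11). TPM1 (ENSG00000140416; chromosome 15, 63042747 to 63071915), a tropomyosin that lies along actin filaments, was higher by 0.82 (SE 0.08, edgeR adjusted p = 2.26e-08). SRF (ENSG00000112658; chromosome 6, 43171269 to 43181506) was higher by 0.54 (SE 0.08, edgeR adjusted p = 5.03e-06).
CNN2 (ENSG00000064666; chromosome 19, 1026608 to 1039065), a calponin of non-muscle cells, was lower in SKMEL30 by a log2 fold change of -1.07 (SE 0.08, edgeR adjusted p = 5.56e-10). CALD1 (ENSG00000122786; chromosome 7, 134711499 to 134970729), whose product caldesmon binds actin and restrains myosin, was lower by -0.66 (SE 0.06, edgeR adjusted p = 6.67e-09). TPM2 (ENSG00000198467; chromosome 9, 35681993 to 35690056), the β-tropomyosin gene, differed by -0.18 (95% interval -0.52 to 0.15, edgeR adjusted p = 0.306). SRF and 2 of its targets were thus higher in SKMEL30 while 2 other targets were higher in SKMEL2. TAGLN was higher in SKMEL30 by 2.12 (SE 0.51, edgeR adjusted p = 0.000841), but it passed the filter through the SKMEL30 libraries alone, so a difference was built into its being tested and it is left out of these counts. Between the uninduced libraries, 3 of the 6 genes lay wholly above in SKMEL30 (37.1% of all genes did) and 2 wholly below (41.2%). Each of the 5 calls, and that of TAGLN, held in every alternative that could test the gene. The 9 fibroblast markers summed to 19.1 to 19.9 CPM in uninduced SKMEL2 and to 69.96 to 70.8 CPM in uninduced SKMEL30. Of the 7 tested between the lines, only LUM and FAP passed the filter in each line by itself. Both were higher in SKMEL30, LUM (2.82 and 26.5 CPM on average in SKMEL2 and SKMEL30) and FAP (11.3 and 40.2 CPM), and these make up most of the sum. COL1A1, COL1A2, COL3A1, PDGFRA and THY1 passed it through the SKMEL2 libraries alone, so a difference was built into their being tested. All of these had a negative log2 fold change in SKMEL30, and all but COL1A1 were called lower. COL1A2 was at 0 in all 3 uninduced SKMEL30 libraries. These genes are not counted here. The part of these markers in the differences between the lines was not tested.

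**Figure D2:**
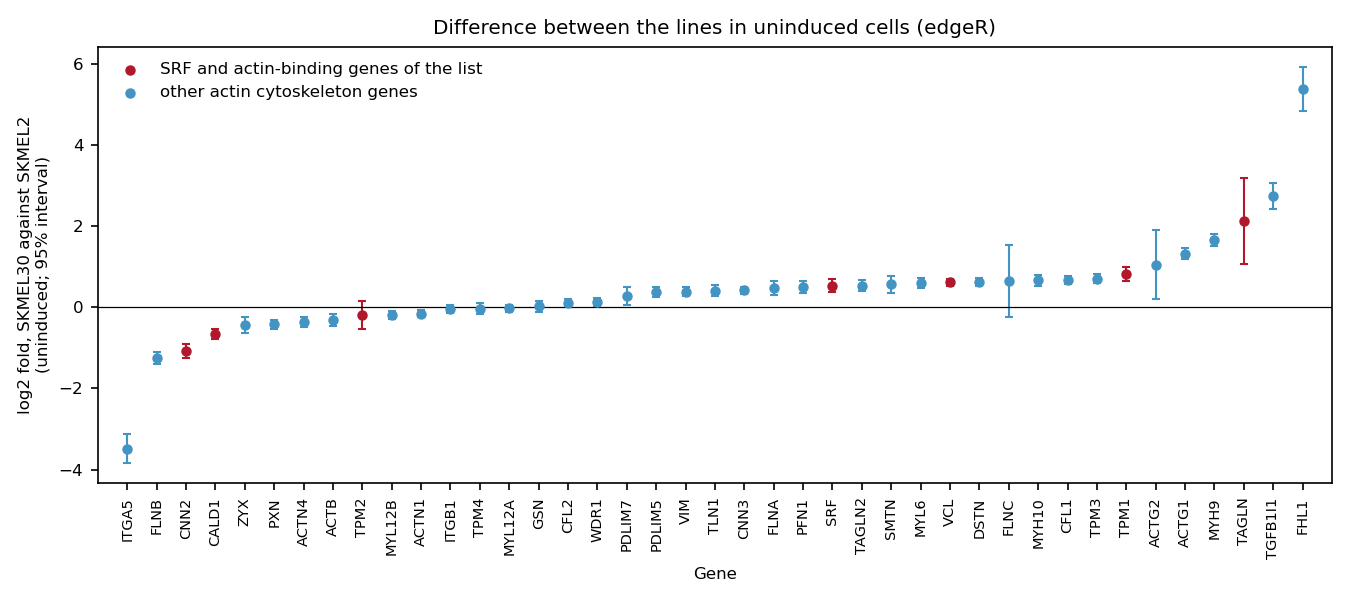
Log2 fold difference between uninduced SKMEL30 and uninduced SKMEL2 cells for the 7 genes of the list that were tested (red) and 34 other actin cytoskeleton genes (blue), with 95% intervals from edgeR and 3 libraries per line. The red points lie on both sides of 0, from -1.07 for CNN2 to 2.12 for TAGLN.

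Of 8 genes of SRF cofactors 7 were tested between the lines, and 4 were higher and 1 lower in SKMEL30, which is also near the background of 75.9%. MRTFA, an MRTF coactivator, was higher by a log2 fold change of 2.22 (SE 0.10, edgeR adjusted p = 4.49e-14). Its relative MRTFB, also an MRTF coactivator, differed by -0.05 (SE 0.06, edgeR adjusted p = 0.414). ELK3, a ternary complex factor, was lower by -1.13 (SE 0.05, edgeR adjusted p = 2.94e-14). Of the 34 other actin cytoskeleton genes tested, 21 were higher and 8 lower, in a comparison in which 35.8% of all genes were higher and 40.1% lower. Among these 34, FHL1 and ACTG2 passed the filter through the SKMEL30 libraries alone, so a difference was built into their being tested.

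Whether induction of PPP2R3B altered these genes was first examined in SKMEL2. In this line 0 of the 6 genes tested was differentially expressed at 6 h, where 0.0124% of all 16120 genes were, and 0 of 6 at 18 h (background 0.0124%). By DESeq2 the number was also 0 at each time. Before adjustment, p lay under 0.05 for 0 of the 6 genes at 6 h and for 2 at 18 h, TPM1 and CNN2, against 3.37% and 4.65% of all genes tested. All 6 genes had a negative log2 fold change at each time, with a median of -0.09 at 6 h and -0.15 at 18 h, where 49.1% and 50.05% of all genes were negative and the medians of all genes were 0.00. These 6 values of a comparison share the same 3 uninduced libraries and are not independent.

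SRF in SKMEL2 had 34.4, 37.4 and 44.2 CPM in uninduced cells, 33.0, 36.99 and 41.4 CPM at 6 h and 33.9, 37.8 and 36.2 CPM at 18 h. The groups overlapped. Its log2 fold change was -0.06 at 6 h (95% interval -0.29 to 0.16) and -0.11 at 18 h (95% interval -0.34 to 0.12). Without uninduced replicate 3, the highest of the 9 libraries, these became 0.04 and -0.0017.
VCL had 173, 175 and 188 CPM in uninduced SKMEL2 cells, 174, 176 and 168 CPM at 6 h and 168, 166 and 169 CPM at 18 h. The 18 h libraries lay below all uninduced ones, by a log2 fold change of -0.09 (SE 0.05, edgeR adjusted p = 0.987). Every deposited value of VCL was a fraction, and the gene overlaps AP3M1 by 1109 bases.

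CALD1 had 276, 277 and 276 CPM in uninduced SKMEL2 cells. It had 267, 273 and 227 CPM at 6 h and 266, 268 and 269 CPM at 18 h, so both induced groups lay below the uninduced one and replicate 3 of 6 h stood lowest. The log2 fold change was -0.11 at 6 h (SE 0.07) and -0.05 at 18 h (SE 0.07), with adjusted p of 0.989 and 0.987 by edgeR. Without replicate 3 of 6 h the value at 6 h was -0.03. All deposited values of CALD1 were whole numbers.
CNN2 had 63.9, 66.4 and 76.1 CPM in uninduced SKMEL2 cells, 58.2, 67.6 and 65.1 CPM at 6 h and 55.1, 61.9 and 63.4 CPM at 18 h. At 6 h the groups overlapped and at 18 h they did not. The log2 fold change at 18 h was -0.20 (SE 0.09, edgeR adjusted p = 0.987), and -0.12 without uninduced replicate 3.

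TPM1 had 25.6, 28.4 and 30.6 CPM in uninduced SKMEL2 cells and 24.4, 31.9 and 24.5 CPM at 6 h. At 18 h it had 23.5, 22.6 and 23.6 CPM, below every other library of the line. The log2 fold change at 18 h was -0.28 (SE 0.11, edgeR adjusted p = 0.987), with a range of -0.35 to -0.22 when each library was left out. It was the gene of the list with the smallest p in this line.
TPM2, at 4.51, 5.26 and 5.97 CPM in uninduced SKMEL2 cells, had 3.96, 4.33 and 4.45 CPM at 6 h and 4.84, 4.98 and 3.64 CPM at 18 h. The 6 h libraries lay below the uninduced ones. Its log2 fold change at 6 h was -0.31, with a wide 95% interval (-0.68 to 0.06), since it rested on 64 to 131 counts.

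Over these 6 genes, the libraries did not overlap, with the induced group below, for 2 genes at 6 h (3.73% of all genes tested) and for 4 at 18 h (7.39%), and with the induced group above for 0 genes at each time (3.23% and 7.37%). Uninduced replicate 3 had the highest level of the 9 SKMEL2 libraries for 4 of the 6 genes, and it was the most deeply sequenced library of the series, with 22383470 counts. Without it the log2 fold change of VCL was -0.02 at 6 h and -0.06 at 18 h, that of TPM2 -0.20 at 6 h and -0.12 at 18 h, and SRF and CNN2 moved as given above.

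**Figure D3:**
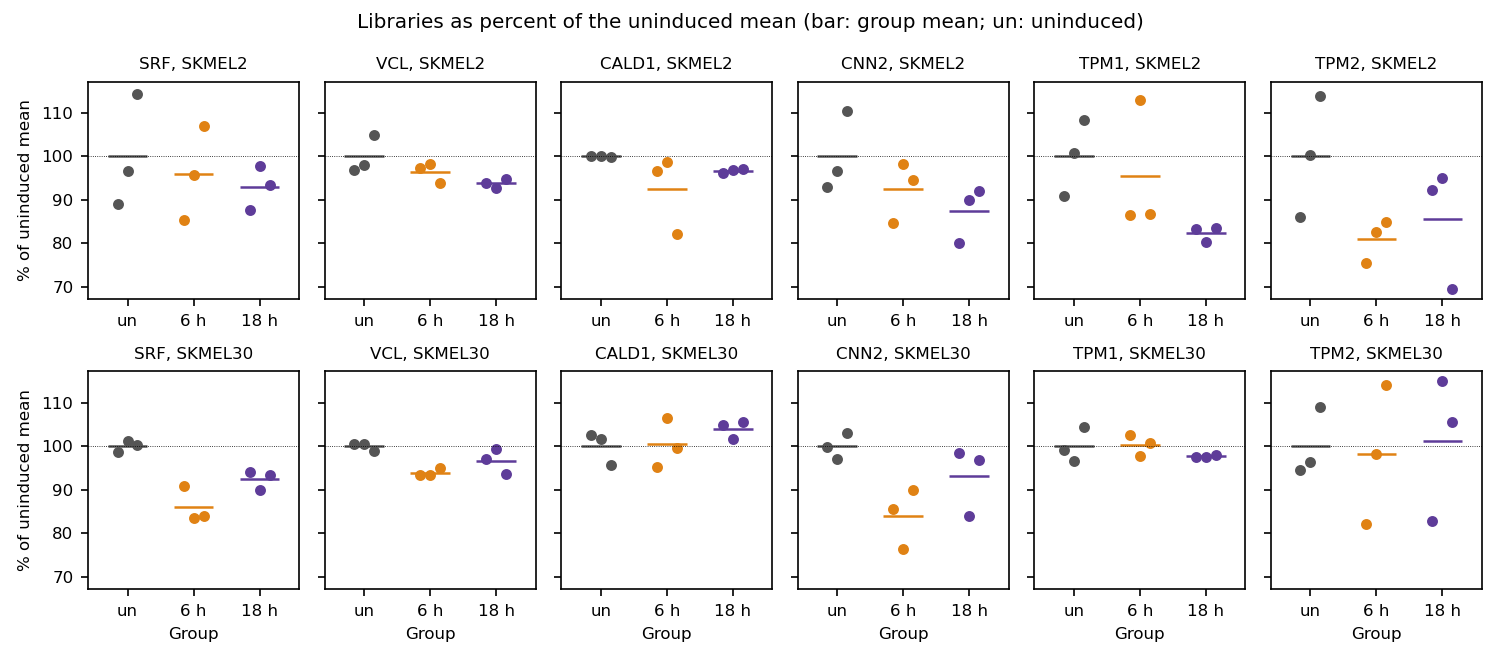
Level of the 6 genes detected in both lines, each library as percent of the mean of the 3 uninduced libraries of its line (dotted line at 100%); short bars are group means and replicates are drawn from left to right. In SKMEL30 the libraries of SRF, CNN2 and VCL at 6 h (5.78% of all genes tested) and of SRF at 18 h (8.19%) lie below all uninduced ones. In SKMEL2 those of TPM2 and CALD1 at 6 h (3.73%) and of CNN2, TPM1, VCL and CALD1 at 18 h (7.39%) do.

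In SKMEL30, where replicates were closer (biological coefficient of variation 4.11%, against 8.36% in SKMEL2), 0 of the 7 genes tested was differentially expressed at 6 h (background 0.206% of 15026 genes, 0.0932% higher and 0.113% lower) and 0 of 7 at 18 h (background 0.293%, 0.173% higher and 0.12% lower), by edgeR and by DESeq2. DESeq2 gave no adjusted p for TAGLN at either time or for CNN2, TPM1, TPM2 and SRF at 18 h. At 6 h 3 genes, SRF, CNN2 and VCL, had an unadjusted p under 0.05, and at 18 h 1 gene, SRF, where 6.44% and 9.14% of all genes did. The median log2 fold change of the 7 genes was -0.0047 at 6 h and -0.04 at 18 h, with 4 and 5 of them negative, and the median of all genes was 0.00 at each time.

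SRF had 51.6, 52.9 and 52.4 CPM in uninduced SKMEL30 cells, 47.5, 43.6 and 43.9 CPM at 6 h and 49.2, 47.1 and 48.8 CPM at 18 h. All 6 induced libraries lay below the 3 uninduced ones. At 6 h the log2 fold change was -0.22 (SE 0.04, 95% interval -0.32 to -0.13), with an adjusted p of 0.0658 by edgeR's quasi-likelihood test, at rank 33 by p of 15026 genes. At 18 h it was -0.11 (SE 0.04, edgeR adjusted p = 0.458), and between 6 h and 18 h it was 0.11 (SE 0.04, edgeR adjusted p = 0.804).
The adjusted p of SRF at 6 h lay close to the threshold of 0.05 and crossed it in 3 of 13 alternatives. It was 0.0397 without replicate 1 of 6 h, 0.0477 with at least 10 counts required in every library and 0.00146 without a filter on low counts, and it reached 1.00 with all 18 libraries in a single fit.

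CNN2 had 30.5, 29.6 and 31.4 CPM in uninduced SKMEL30 cells. It had 26.1, 23.3 and 27.5 CPM at 6 h, all below, and 30.02, 25.6 and 29.6 CPM at 18 h, which overlapped. The log2 fold change was -0.25 at 6 h (SE 0.07, edgeR adjusted p = 0.385) and -0.10 at 18 h (SE 0.07, edgeR adjusted p = 0.741). Without a filter on low counts the adjusted p at 6 h was 0.00795, the only alternative under the threshold.
VCL had 256, 256 and 252 CPM in uninduced SKMEL30 cells, 237, 238 and 242 CPM at 6 h and 247, 253 and 238 CPM at 18 h. The 6 h libraries lay below the others, apart from an 18 h library at 238 CPM. The log2 fold change was -0.09 at 6 h (SE 0.03, edgeR adjusted p = 0.439) and -0.05 at 18 h (SE 0.03, edgeR adjusted p = 0.624).

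The tropomyosin genes and CALD1 gave log2 fold changes close to 0 in SKMEL30, unlike CNN2 at 6 h. TPM1 had 46.1, 45.0 and 48.6 CPM in uninduced cells, 47.7, 45.5 and 46.9 CPM at 6 h and 45.4, 45.4 and 45.7 CPM at 18 h. Its log2 fold change was 0.00 at 6 h (95% interval -0.09 to 0.09) and -0.03 at 18 h (95% interval -0.12 to 0.06). CALD1 had 167, 166 and 155 CPM in uninduced cells, 155, 173 and 162 CPM at 6 h and 170, 165 and 172 CPM at 18 h, which gave log2 fold changes of 0.01 (95% interval -0.08 to 0.10) and 0.06 (95% interval -0.03 to 0.14).
These intervals leave out the estimate of -0.28 that TPM1 had in SKMEL2 at 18 h. That estimate has a wide 95% interval of its own (-0.51 to -0.05), which overlaps the interval of TPM1 in SKMEL30 at 18 h. A difference between the lines is therefore not shown by these values. TPM2 had between 3.54 and 4.95 CPM in all 9 libraries, with log2 fold changes of 0.00 at 6 h and 0.01 at 18 h and 95% intervals that reached 0.35. TAGLN, at 0.681 to 1.48 CPM, had intervals from -0.60 to 0.69 at 6 h and from -0.70 to 0.61 at 18 h, so that a sizeable change in either direction was not detectable at this depth.

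**Figure D4:**
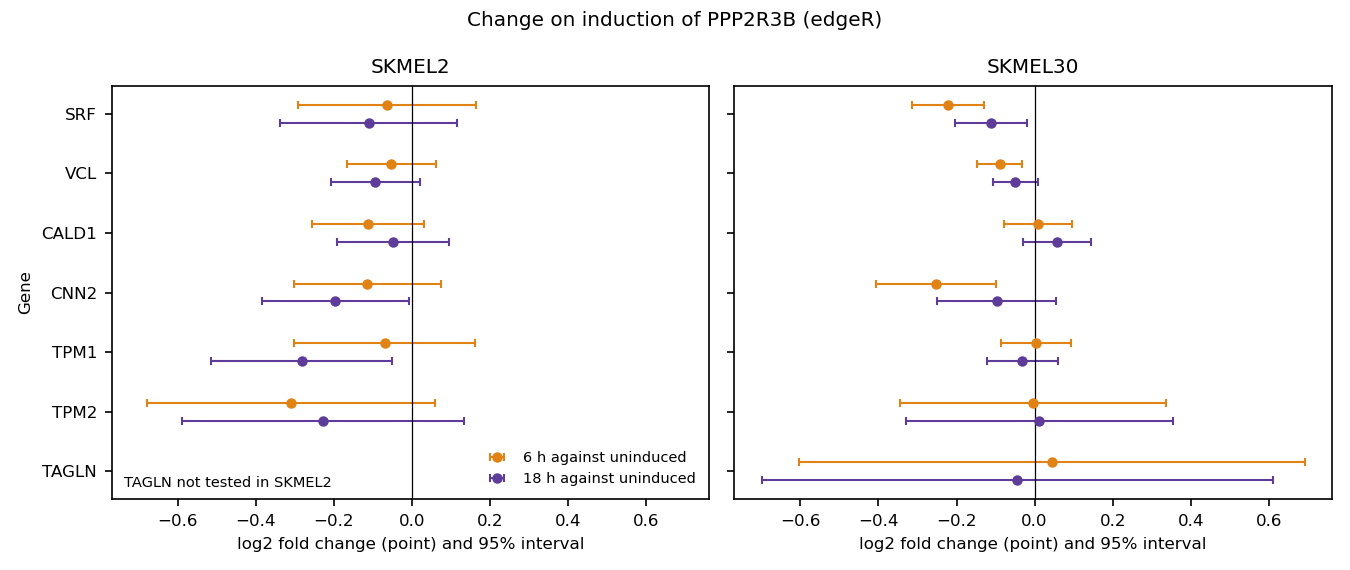
Log2 fold change of each tested gene at 6 h (orange) and 18 h (purple) against the uninduced cells of the same line, with 95% intervals from edgeR and 3 libraries per group. All SKMEL2 points lie left of 0 and most of their intervals cross it, and in SKMEL30 the intervals of SRF at both times and of CNN2 and VCL at 6 h lie left of 0.

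In SKMEL30 the induced libraries lay wholly below the uninduced ones for 3 of the 7 genes at 6 h (SRF, CNN2 and VCL; 5.78% of all genes tested) and for 1 at 18 h (SRF; 8.19%), and wholly above for 0 at each time (5.4% and 7.75%). In SKMEL2, SRF had overlapping groups at both times. The later time was also set against the earlier one. Between 18 h and 6 h, 0 of 6 genes differed in SKMEL2 (background 0% of genes called) and 0 of 7 in SKMEL30 (background 0.02%), by edgeR and by DESeq2, with an unadjusted p under 0.05 for 0 and 1 gene. Among the SKMEL2 genes only TPM1 had non-overlapping groups, with 18 h below 6 h (4.17% of all genes tested, against 3.99% with 18 h above), at a log2 fold change of -0.21 (SE 0.11, edgeR adjusted p = 1.00). In SKMEL30 the groups of all 7 genes overlapped between these times (5.76% of all genes lay below and 5.48% above).

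The responses of the lines were set against each other by an interaction term in the fit of all 18 libraries. Of the 7 genes 0 differed in response at 6 h (background 0%) and 0 at 18 h (background 0.00584%), by edgeR and by DESeq2, and before adjustment p lay under 0.05 for 0 and 1 of them. That gene was TPM1 at 18 h, where the response in SKMEL30 minus that in SKMEL2 was 0.25 (95% interval 0.00 to 0.50, edgeR adjusted p = 0.895). For SRF the difference was -0.15 at 6 h (95% interval -0.39 to 0.09) and 0.00 at 18 h (95% interval -0.23 to 0.23). The lower level of SRF in induced SKMEL30 cells was therefore not shown to differ from the response in SKMEL2.

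Genes that work with or beside the list were read from lists written for this purpose. Among 7 cofactors of SRF tested in each line, 0 was differentially expressed at either time. FHL2, a LIM protein that binds SRF and competes with its coactivators, had log2 fold changes of -0.17 at 6 h (SE 0.05, edgeR adjusted p = 0.369) and -0.13 at 18 h (SE 0.05, edgeR adjusted p = 0.388) in SKMEL30. MRTFA had -0.09 at 18 h in SKMEL30 (SE 0.06, edgeR adjusted p = 0.720). In SKMEL2 at 18 h, ELK3 had -0.05 (SE 0.05) and SCAI, a suppressor of MRTF, -0.10 (SE 0.12), each at an edgeR adjusted p of 0.987. With each library left out SCAI ran from -0.15 to -0.0078, ELK3 from -0.06 to -0.03 and MRTFA from -0.13 to -0.05.
Of 8 growth factor responsive SRF targets, which are reached through ELK factors, 0 was differentially expressed in either line. At 18 h EGR1 had a log2 fold change of 0.15 (SE 0.05, edgeR adjusted p = 0.423) and FOS of -0.14 (SE 0.09, edgeR adjusted p = 0.690) in SKMEL30. EGR3 had -0.17 (SE 0.12) and IER2 0.14 (SE 0.12) in SKMEL2, each at an edgeR adjusted p of 0.987. With each library left out EGR3 ran from -0.30 to -0.07, IER2 from 0.09 to 0.18 and FOS from -0.17 to -0.06. Before adjustment, p lay under 0.05 for 1 cofactor and 1 growth factor responsive gene at each time in SKMEL30 (6.44% and 9.14% of all genes) and for 0 in SKMEL2 (3.37% and 4.65%). DESeq2 called 0 genes of either list, but gave no adjusted p in SKMEL30 at 18 h for FHL2, MRTFA, EGR1 and FOS.

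Of the other actin cytoskeleton genes, 1 of 34 was differentially expressed in SKMEL30 at 6 h (background 0.206%) and 1 of 34 at 18 h (0.293%), each lower than in uninduced cells, and 0 of 32 in SKMEL2 at either time (0.0124%). Before adjustment, p lay under 0.05 in SKMEL30 for 9 of 34 genes at each time, all 9 lower, where 6.44% and 9.14% of all genes had such a p in either direction. In SKMEL2 it did for 1 gene and 3 genes of 32 (3.37% and 4.65% of all genes). DESeq2 called 1 in SKMEL30 at 6 h, 4 at 18 h and 0 in SKMEL2. At 6 h this was ACTG1, cytoplasmic γ-actin, which had 4311, 4252 and 4290 CPM in uninduced SKMEL30 cells and 3977, 3715 and 3898 CPM at 6 h. It fell by 0.15 on the log2 scale at 6 h (SE 0.02, edgeR adjusted p = 0.0172), while at 18 h its log2 fold change was -0.12 (SE 0.02, edgeR adjusted p = 0.0584). The adjusted p at 18 h lay under 0.05 in 3 of 13 alternatives. It was 2.18e-05 by DESeq2, 0.00114 by edgeR without a filter on low counts and 0.0143 by edgeR with only the 6 libraries compared. The call at 6 h was lost in 4 of 13 alternatives, with an adjusted p of up to 0.0800 when 1 library was left out and of 1.00 with all 18 libraries in a single fit.
At 18 h the gene called by edgeR was MYH10, the heavy chain of non-muscle myosin IIB. It had 473, 457 and 475 CPM in uninduced SKMEL30 cells and 433, 422 and 424 CPM at 18 h. MYH10 fell by 0.14 (SE 0.03, edgeR adjusted p = 0.0426), and its adjusted p rose above 0.05 without any 1 of the 6 libraries compared (0.0683 to 0.220), with the replicate number as a block (0.0526) and with all 18 libraries in a single fit (1.00), so that the call held in 5 of 13 alternatives. Counted by sign, 23 of 34 genes of the list were negative at 6 h and 28 of 34 at 18 h in SKMEL30 (medians -0.02 and -0.05), where 49.7% of all genes were negative at each time. In SKMEL2, 12 of 32 were negative at 6 h and 23 of 32 at 18 h. The genes of a line share the same 3 uninduced libraries at both times, so these signs, and the p-values counted above, are not independent. CNN3, the most abundant calponin, had the smallest p of that list in SKMEL2 at 18 h, with a log2 fold change of -0.24 (SE 0.05, edgeR adjusted p = 0.641), beside 0.19 for the integrin gene ITGA5 (SE 0.08, edgeR adjusted p = 0.987).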

How the data were processed

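RNA of 18 libraries was sequenced. Libraries had been made by the authors with a KAPA mRNA HyperPrep kit; they aligned paired-end reads with STAR to the GRCh38 transcriptome, merged lanes with SAMtools 1.8 and estimated counts per gene with RSEM 1.3.0 (versions from the submitters' processing notes, which also name Trimmomatic 0.36 and cutadapt). The strand setting of the counting is not given in the sources used here. The deposited values are expected counts, not scaled for library size, and 12.3% of them are not whole numbers. Each column was matched to its sample by label.

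Expected counts were rounded. In R 4.3.3 with edgeR 4.0.16, genes were filtered with filterByExpr and scaled by TMM, and the 9 libraries of a line were fitted with glmQLFit and tested with glmQLFTest; the lines were compared in a fit of all 18. A gene counts as differentially expressed at a Benjamini-Hochberg adjusted p under 0.05 over all genes tested. The SE of a log2 fold change was derived from its size and the F statistic. Coordinates and promoters are from RefSeq (GRCh38.p14), and transcript lengths from GENCODE. Steps were run on simulated data with known changes at 18 h. A log2 change of 0.5 was recovered for 46.9% of genes in SKMEL2 and 68.75% in SKMEL30, and smaller changes were not simulated. Of unchanged genes, 11 of 15679 were called in SKMEL2 and 20 of 14619 in SKMEL30. Intervals of levels cover spread between libraries, and floors counting error only. Replicates differed by more than sampling noise (chi-square per degree of freedom 2.08 to 18.6 in 18 pairs).

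The genes and the lists were chosen with earlier results of these data known. Named are the 10 genes and, of each other list reported, genes differentially expressed on induction and the pair with the smallest p per line at 18 h; the relatives of weakly detected genes, MRTFB, ELK3 between the lines and values of named genes at other times were chosen after their values were seen. Replicate numbers were not used as pairs in the main fits. Libraries of the same number correlated above 0.1, after removal of group means, in 3 of 9 cases in SKMEL2 and 1 of 9 in SKMEL30. Their correlations ran from -0.13 to 0.17 in SKMEL2, against -0.19 to 0.19 for libraries of different numbers. In SKMEL30 they ran from -0.02 to 0.12, against -0.08 to 0.07, so these values do not settle whether the libraries are paired. The alternatives were DESeq2 1.42.0, RLE size factors, no filter, at least 10 counts in every library, the replicate number as a block, all 18 libraries in a fit, only the 6 libraries compared, and each library left out. For the other lists they were added after seeing the data. The results of a further list of genes are not reported here.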

Additional observations from a re-analysis of the deposited data

How the results depend on the processing

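SRF and the other genes of the list gave no call on induction in either line or at either time, except in SKMEL30 at 6 h. There the number called was 2 without a filter on low counts and 1 under the stricter filter of at least 10 counts per library, and it ran from 0 to 1 with each library left out (1 without replicate 1 of 6 h). Of 826 alternative values of single genes of the list, 783 kept direction and side of the threshold, 39 changed sign and 4 passed the threshold. The 783 include values in SKMEL30 to which DESeq2 gave no adjusted p, counted by direction alone. These were TAGLN at each time and between the times, and CNN2, TPM1, TPM2 and SRF at 18 h. With the replicate number as a block, SRF at 6 h in SKMEL30 had -0.22 and an adjusted p of 0.108; the block changed no call of the list. The difference of the SRF response at 18 h changed sign, at values near 0, with at least 10 counts (-0.00047), DESeq2 (-0.0068), the block (-0.012) and RLE size factors (-0.0053), and TPM2 in SKMEL30 at 6 h became 0.0016 with at least 10 counts. No cause was tested. Low counts limit ACTA2, MYL9, CNN1, TAGLN and TPM2.

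With each library left out, these log2 fold changes crossed 0. In SKMEL2 at 6 h TPM1 ran from -0.21 to 0.0023, SRF from -0.15 to 0.045, SCAI from -0.12 to 0.078 and IER2 from -0.032 to 0.26, and between 18 h and 6 h CALD1 ran from -0.014 to 0.11 and SRF from -0.13 to 0.037. In SKMEL30 at 6 h TAGLN ran from -0.11 to 0.16, TPM1 from -0.021 to 0.035, TPM2 from -0.13 to 0.091 and CALD1 from -0.037 to 0.043. At 18 h TAGLN ran from -0.27 to 0.23 and TPM2 from -0.083 to 0.14, and between 18 h and 6 h they ran from -0.32 to 0.18 and from -0.078 to 0.15. The difference of the 18 h response ran from -0.99 to 0.25 for TAGLN and from -0.11 to 0.080 for SRF.

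Counts over all genes moved more. In SKMEL2 the 2 genes called at 6 h became 6 with all 18 libraries, 8 by DESeq2 and 158 without a filter, and the 2 at 18 h became 7, 11 and 168, 9 with only 6 libraries and 7 with the block. In SKMEL30 the 31 at 6 h became 5 with all 18 libraries and 321 without a filter, and the 44 at 18 h became 9, 71 by DESeq2 and 359 without a filter. Between 18 h and 6 h the 0 genes of SKMEL2 became 5 by DESeq2 and 135 without a filter. In SKMEL30 the 3 became 5 with at least 10 counts, 12 by DESeq2, 16 with the block, 197 without a filter and 0 with all 18 or only 6 libraries. Interactions went from 0 to 237 at 6 h and from 1 to 216 at 18 h without a filter, and to 3 by DESeq2 at 18 h. With each library left out, the 2 genes of SKMEL2 at 6 h ran from 2 to 5, the 31 of SKMEL30 at 6 h from 16 (without uninduced replicate 1) to 33 and the 44 at 18 h from 25 to 30, and between 18 h and 6 h the 3 of SKMEL30 ran from 0 to 5 and the 0 of SKMEL2 from 0 to 1. Interactions ran from 0 to 1 at 6 h and from 1 to 2 at 18 h.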
